A study of Mus musculus with 12 samples.

Results

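Hif3a and 8 other genes of the hypoxia-inducible factor (HIF) family were followed in cultured mouse oligodendrocyte precursor cells (OPCs), from which the myelin-forming cells of the brain arise. The family was taken as 9 of the 55536 genes quantified: the α subunits Hif3a, Hif1a and Epas1 (HIF-2α), the β subunits Arnt and Arnt2, the prolyl hydroxylases Egln1, Egln2 and Egln3, and the ubiquitin ligase subunit Vhl. Hif3a was selected on its response to dexamethasone, so its differences that involve Dexa-treated OPCs are given as a description with no test. The other 8 genes were selected by name as its family, and their differences were tested.

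The 3 groups of OPCs compared were these: Ctr-OPCs with no treatment, Dexa-treated OPCs given 1 µM of dexamethasone, a synthetic glucocorticoid, for 48 h, and IFN-γ-treated OPCs given 100 ng/ml of the cytokine IFN-γ for 48 h. All groups were cultured from brains of pups aged P4 to P6, several pooled for each experiment, and expanded with PDGFaa and bFGF. The labels call all libraries Sox10GFP+ OPCs, which marks a reporter active across the oligodendrocyte lineage, while the culture protocol allows either sorting for this reporter or CD140a beads. The label for the mouse model reads EAE (experimental autoimmune encephalomyelitis) in all 12 libraries, although the protocol for these cultures names pups and no immunization. Each group has 4 replicates from different litters, and libraries with the same replicate number were treated as pairs. Replicates 3 and 4 share a title prefix in every group. The table of Dexa replicate 3 breaks off after 33.7% of its transcripts and lists only Hif1a and Egln3 of the family, so that tests rest on 4 Ctr, 3 Dexa and 4 IFNg libraries with 19209063 to 52074652 estimated reads each.

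HIFs are transcription factors made of an α and a β subunit that share the bHLH-PAS fold. In oxygenated cells the prolyl hydroxylases mark the α subunits, Vhl brings the marked protein to the proteasome, and the β subunits are present at all times. When oxygen falls, the α subunits persist and switch on genes of glycolysis, vessel growth and mitochondrial turnover. Much of this control acts on protein, which RNA levels do not show. HIF-1α and HIF-2α are activators, whereas several products of Hif3a lack a strong activation domain and can hold the others back. In the oligodendrocyte lineage, stabilized HIF is known for delaying the maturation of OPCs.

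OPC markers were visible in all complete libraries, with 8 of 8 above 1 TPM (a level per transcript length, on a scale with the same total in every library). In every group 7 of 8 astrocyte markers also stood above 1 TPM in all libraries. For markers of myelinating oligodendrocytes this count was 3, 4 and 3 of 7, and for neuronal markers 2, 2 and 3 of 7, in the order Ctr, Dexa and IFNg. Summed over the 8 OPC markers, the level was 818 to 1912 TPM in Ctr-OPCs, 984 to 2023 in Dexa-treated OPCs and 686 to 1475 in IFN-γ-treated OPCs. Astrocyte markers summed to 126 to 321, 272 to 481 and 268 to 439 TPM, markers of myelinating oligodendrocytes to 58.0 to 223, 72.6 to 248 and 49.5 to 146, and neuronal markers to 13.6 to 16.5, 18.0 to 21.2 and 27.3 to 60.2, in the same order of groups. Microglial markers summed to 3.01 to 6.28 TPM over all groups, with Cx3cr1 and Aif1 at no more than 3 reads in any complete library. Under dexamethasone 1 OPC, 1 astrocyte, 1 neuronal and 0 oligodendrocyte markers rose and 0 of them fell, and under IFN-γ 6 OPC, 2 astrocyte, 2 neuronal and 2 oligodendrocyte markers fell and 0, 4, 2 and 0 rose. The numbers tested were 8, 8, 5 and 7, and over all genes tested 1.5% passed under dexamethasone and 31% under IFN-γ. Without the replicate block 0 of these markers were called under dexamethasone. Under IFN-γ 0 OPC, 1 astrocyte, 2 neuronal and 0 oligodendrocyte markers were then called. Of the 3 microglial markers tested 0 passed in either treatment, with 0 also at an unadjusted p under 0.05 (edgeR) and 0 by DESeq2 with the replicate block. Both treatments were visible in the genes known to answer them. Dexamethasone raised 8 of 12 glucocorticoid response genes (median log2 difference of the 12 genes 1.12), and under IFN-γ 3 of them rose and 4 fell. Without the replicate block 3 of the 12 were called under dexamethasone and 1 under IFN-γ. IFN-γ raised all 5 interferon response genes (median 6.01), of which 0 passed the test under dexamethasone (edgeR, 1 at an unadjusted p under 0.05, 0 by DESeq2 with the replicate block).

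Hif3a was close to silent in Ctr-OPCs and IFN-γ-treated OPCs and well above the reads of either in Dexa-treated OPCs. The gene (ENSMUSG00000004328) lies on the minus strand of chromosome 7, GRCm38, 17031507 to 17062427. It held 17, 10, 0 and 3 estimated reads in Ctr replicates 1 to 4, and 11, 4, 3 and 2 reads in IFNg replicates 1 to 4. In Dexa replicates 1, 2 and 4 it held 857, 597 and 295 reads. Every Dexa library thus held many times the reads of any other library, while Ctr-OPCs and IFN-γ-treated OPCs overlapped. As TMM-scaled CPM (reads relative to the library's scaled total), the mean of Hif3a was 0.186 ± 0.197 for the Ctr (SD, n = 4), 19.3 ± 6.88 for the Dexa (SD, n = 3) and 0.155 ± 0.117 for the IFNg libraries (SD, n = 4).

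The fitted log2 difference of Hif3a between Dexa-treated OPCs and Ctr-OPCs was 6.39 ± 0.30 (SE, 95% interval 5.72 to 7.07), an 84.1-fold higher level. Because the Ctr level rests on 30 reads in 4 libraries, with 1 library at 0, the fold depends on those few reads. Over 20 other settings of the analysis the log2 difference lay between 4.33 and 6.82, the lowest with 0.1 TPM added to every value. Relative to Dexa-treated OPCs, the log2 difference of IFN-γ-treated OPCs was -6.62 ± 0.32. For IFN-γ against Ctr, a contrast that did not choose the gene, the log2 difference was -0.23 ± 0.51 with a 95% interval of -1.36 to 0.91 (edgeR, adjusted p = 0.781). At 20 reads against 30, a difference within this interval was not detectable. Hif3a reached the filter of 10 reads in 6 of 11 libraries, 3 of them Ctr or IFNg libraries. In these bulk cultures, more cells with Hif3a RNA and more Hif3a RNA per cell cannot be told apart. The summed levels of astrocyte, OPC and myelinating oligodendrocyte markers given above overlapped between Dexa-treated OPCs and Ctr-OPCs, as did those of microglia and pericytes. Those of neuronal markers did not overlap and were higher in Dexa-treated OPCs, at 18.0 to 21.2 against 13.6 to 16.5 TPM. Those of endothelial markers were higher by a narrow gap, at 0.8823 to 1.60 against 0.756 to 0.8817 TPM, with Cldn5 at no more than 3 reads in any complete library. These ranges take no account of pairing. With pairing, 7 of 8 astrocyte, 7 of 8 OPC and 7 of 7 myelinating oligodendrocyte markers had log2 differences above 0 under dexamethasone. Their medians were 0.22, 0.15 and 0.26, against -0.01 over all genes tested. For microglial, pericyte, neuronal and endothelial markers the counts above 0 were 3 of 3, 2 of 3, 4 of 5 and 5 of 6. The part of all these cell types in the level of Hif3a was not tested.

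**Figure D1:**
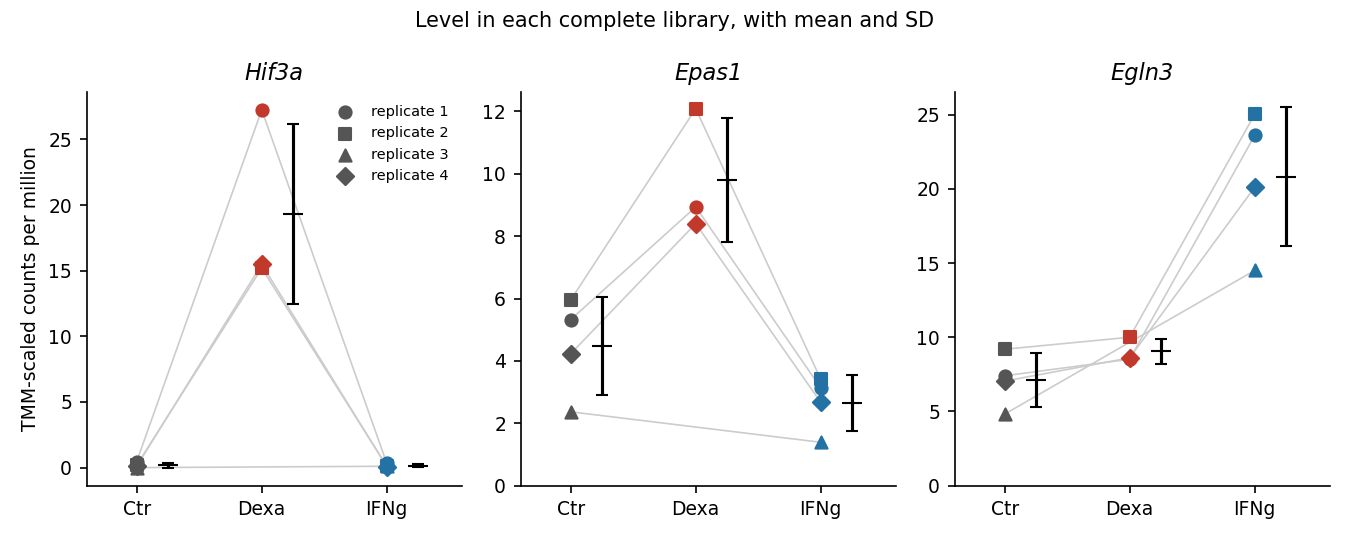
TMM-scaled CPM (linear axis) of Hif3a, Epas1 and Egln3 in each complete library of the 3 groups. Symbols mark the replicate number, grey lines join libraries with the same number, and black bars give the mean and SD. Hif3a stands at 15.2 to 27.2 in the Dexa libraries and at most at 0.459 elsewhere. Epas1 is highest in the Dexa library of numbers 1, 2 and 4 and lowest in the IFNg library of each number. Egln3 is highest in the IFNg library of each number, with no Dexa library shown for number 3.

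The plot of levels by library shows the 3 genes with the largest differences in the family, each with its own pattern over the groups. Hif3a was high in Dexa libraries only, Epas1 moved in opposite directions under the treatments, and Egln3 was raised in IFNg libraries.

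Of the 3 genes with the largest differences, RefSeq promoter sequences were at hand for Hif3a and Egln3, and they are given as the 250 bases before the annotated start on GRCm38.p6, 5′ to 3′ on the gene's strand. Capitals mark the 5-base core of a HIF response element, ACGTG or GCGTG, on either strand. The Hif3a stretch is chr7:17062428-17062677 on the minus strand and the Egln3 stretch is chr12:54203875-54204124 on the minus strand.
Hif3a: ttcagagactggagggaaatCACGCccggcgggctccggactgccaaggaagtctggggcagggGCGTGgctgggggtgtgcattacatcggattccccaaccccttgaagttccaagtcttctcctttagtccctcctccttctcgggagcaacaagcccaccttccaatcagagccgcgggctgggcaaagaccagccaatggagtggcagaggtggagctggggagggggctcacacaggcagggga
Egln3: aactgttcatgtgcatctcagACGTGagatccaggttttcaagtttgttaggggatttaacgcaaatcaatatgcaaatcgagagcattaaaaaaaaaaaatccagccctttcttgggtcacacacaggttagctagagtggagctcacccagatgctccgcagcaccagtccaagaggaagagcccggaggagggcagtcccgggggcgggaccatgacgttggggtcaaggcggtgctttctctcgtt

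RefSeq gave promoters, 250 bases before to 50 after the start, for 8 of the 9 genes, with 2 for Egln2. The Hif3a promoter held 2 copies of GCGTG, counting either strand, with first bases at -230 and -186 (the base before the start is -1), and the Egln3 promoter held 1 copy of ACGTG with its first base at -229. ACGTG was found in 4 of the 9 promoters, those of Hif1a, Egln1, Egln3 and Egln2 (1 of its 2), against 19.6% of all 32851 promoters. GCGTG was found in 5 of 9, those of Hif3a, Arnt, Egln1 and Egln2 (both), against 32.4% of all. The glucocorticoid receptor half-site AGAACA was in 0 of the 9 and in 18.97% of all promoters. The palindromic glucocorticoid site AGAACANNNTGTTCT, which contains the half-site, was in 0 of the 9 and in 3 of all 32851 promoters. The shares were not adjusted for GC, the percentage of bases that are G or C. One Egln2 promoter stood at 49.3% GC and the other promoters at 54.7% to 86%, against a median of 52.7% over all promoters. A match is a run of letters in this window and not a bound site, and sites outside the window were not searched.

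Salmon assigned most Hif3a reads of Dexa-treated OPCs to the longest transcript, Hif3a-202, which starts furthest upstream. Of 4 annotated transcripts, Hif3a-202 (15 exons, 6402 bases) starts at 17062427 and Hif3a-201 (15 exons, 2206 bases) at 17056679, 5748 bases downstream. They share 2103 exonic bases and 1966 coding bases, so that reads in the shared part are divided between them by Salmon's model. Hif3a-202 alone holds 4299 bases, most of them in a long last exon that extends past the end of Hif3a-201, and Hif3a-201 alone holds 103.

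In Dexa replicates 1, 2 and 4, Hif3a-202 received 762.9, 573.9 and 272.2 reads, or 89.0% (95% Wilson interval 86.8 to 91.0), 96.1% (94.3 to 97.4) and 92.3% (88.6 to 94.7) of the gene's reads. Hif3a-201 received 87.8, 22.1 and 18.8 reads, or 10.2% (8.41 to 12.5), 3.69% (2.45 to 5.52) and 6.36% (4.16 to 9.84). The intervals cover counting error only and take the model's division of reads as given. Salmon thus assigned reads to both transcripts in all 3 Dexa libraries, the long one with the larger share in each. Reads on the 103 bases that Hif3a-201 alone holds were not counted apart, so its presence rests on the model. Hif3a-203, a short fragment, received 6.37, 1 and 4 reads, and Hif3a-204 received 0 reads in every library, which in Dexa replicate 1 allows a share of up to 0.446% (Wilson).

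Per length the shares were less uneven, since Hif3a-202 is long. By TPM, Hif3a-202 made up 60.4%, 84.6% and 56.4% of the gene in Dexa replicates 1, 2 and 4. Hif3a-201 made up 21.5%, 10.1% and 12.1%. Hif3a-203, whose effective length is 169 bases, made up 18.2%, 5.36% and 31.5% from its 6.37, 1 and 4 reads, so that the gene's TPM depends in part on a handful of reads. In Ctr-OPCs Hif3a-202 received 8.86, 10, 0 and 3 reads and Hif3a-201 8.04, 0, 0 and 0. In IFN-γ-treated OPCs Hif3a-202 received 10.3, 2.95, 1.48 and 2 reads and Hif3a-201 0, 1.05, 1.52 and 0. With at most 17 reads a library, no shift between transcripts was detectable in these groups.

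**Figure D2:**
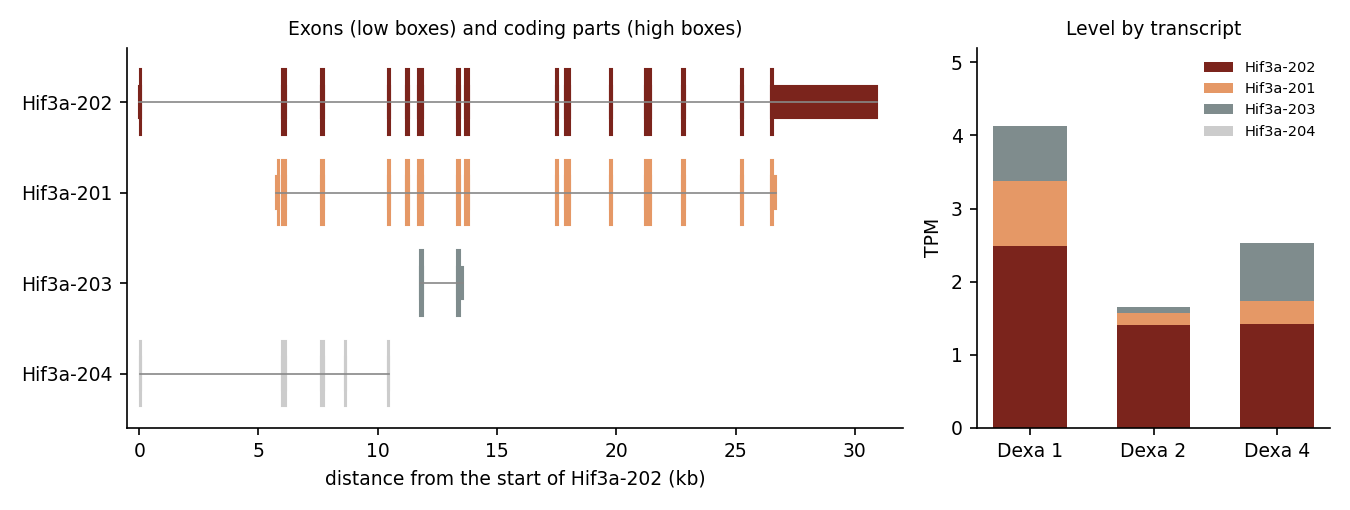
Left, the exons of the 4 annotated Hif3a transcripts by distance from the start of Hif3a-202 in kilobases, with low boxes for exons and high boxes for coding parts. Right, stacked TPM (linear axis from 0) by transcript in Dexa replicates 1, 2 and 4, where Hif3a-202 has the largest share in each library and Hif3a-204 is at 0.

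The map of the exons shows the long last exon that belongs to Hif3a-202 alone, and the stacked levels show each Dexa library by transcript. The ordering, Hif3a-202 above Hif3a-201, was the same by reads and by TPM in the 3 Dexa libraries.

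Among the α subunits, Hif1a carried nearly all RNA in Ctr-OPCs, and the share of Hif3a was highest in Dexa-treated OPCs. Of the summed TPM of the 3 α subunits, Hif3a made up 0.353%, 0.0565%, 0 and 0.0210% in Ctr replicates 1 to 4 and 0.388%, 0.0526%, 0.0692% and 0.0244% in IFNg replicates 1 to 4. In Dexa replicates 1, 2 and 4 it made up 12.5%, 5.31% and 5.52%, above every library of the other groups. Hif1a made up 97.5% to 99.3% in Ctr-OPCs and 83.1% to 91.6% in Dexa-treated OPCs, and Epas1 0.658% to 2.18% and 2.87% to 4.49%. A short transcript with 2.88 and 1.37 reads gave 28.8% and 26.2% of the TPM of Epas1 in Dexa replicates 1 and 4. Over the complete libraries the short Hif1a-205 gave 6.87% to 14.7% of the TPM of Hif1a from 0.472% to 1.13% of its reads.

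Ordered by mean TPM in Ctr-OPCs, Hif1a stood first at 36.8 ± 8.67 (SD, n = 4), followed by Egln2 at 19.9 ± 5.08, Vhl at 19.1 ± 3.402, Arnt2 at 16.9 ± 1.43 and Egln1 at 15.9 ± 1.91. Neighbours among these 5 genes had overlapping libraries. Below them, Arnt at 7.54 ± 0.820, Egln3 at 1.78 ± 0.489, Epas1 at 0.514 ± 0.186 and Hif3a at 0.0305 ± 0.0423 each lay apart from their neighbours. In Dexa-treated OPCs Hif3a moved from last to the seventh place at 2.77 ± 1.25 TPM (SD, n = 3), where its libraries overlapped those of Egln3 at 1.95 ± 0.649 (n = 4) and lay above those of Epas1 at 1.39 ± 0.0916 (n = 3). In IFN-γ-treated OPCs Egln3 rose to 6.01 ± 1.86 TPM and its libraries overlapped those of Arnt at 8.01 ± 0.907 (both n = 4).

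**Figure D3:**
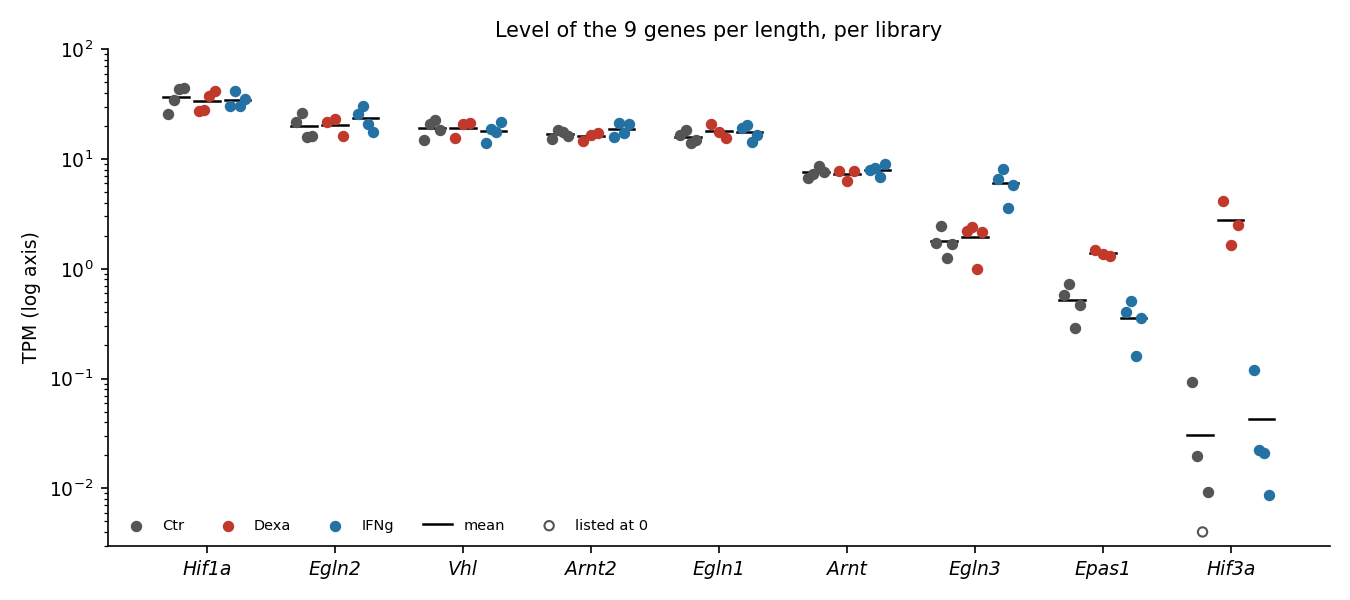
TPM (log axis) of the 9 genes in each library, with genes ordered by their mean in Ctr-OPCs, short black lines at group means and an open circle at the foot for the Ctr library in which Hif3a is listed at 0. Dexa replicate 3 is shown for Hif1a and Egln3 alone. On this scale the libraries of the 6 genes from Hif1a to Arnt overlap between the groups, while Egln3, Epas1 and Hif3a each have a group that lies apart. Vhl, among the 6, was lower in IFN-γ-treated OPCs on the TMM scale used for the tests.

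TPM scales differ slightly between groups. Over 11076 genes above 1 TPM, the median gene's log2 TPM ratio to the paired Ctr library was 0.261, 0.2505, -0.0734 and 0.232 in IFNg replicates 1 to 4 and 0.118, -0.150 and 0.0491 in Dexa replicates 1, 2 and 4. The log2 differences in what follows come from the TMM scale, where the median gene of all 18386 tested stood at -0.01 in Dexa-treated and -0.03 in IFN-γ-treated OPCs.

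In Dexa-treated OPCs, Epas1 was the 1 of the 8 tested family members that changed, and it rose. Over all 18386 genes tested, 275 passed (1.5%), with 228 (1.24%) higher and 47 (0.256%) lower in Dexa-treated OPCs. The remaining 7 members had adjusted p-values of 0.423 to 0.991 (edgeR).

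Epas1 (ENSMUSG00000024140, chromosome 17, 86753700 to 86833410) encodes HIF-2α, known for its part in vessels and in the response of the kidney to low oxygen. Its level was 5.32, 5.95, 2.37 and 4.23 CPM in Ctr replicates 1 to 4, 8.93, 12.1 and 8.40 in Dexa replicates 1, 2 and 4, and 3.14, 3.41, 1.39 and 2.67 in IFNg replicates 1 to 4. All Dexa libraries stood above all Ctr libraries, and each IFNg library stood below its Ctr partner although the 2 groups overlapped. The log2 difference was 0.92 ± 0.11 (SE, 95% interval 0.67 to 1.17) for Dexa-treated OPCs, 1.89-fold higher (edgeR, adjusted p = 0.00280, higher in 3 of 3 pairs). For IFN-γ-treated OPCs it was -0.75 ± 0.11 (-0.99 to -0.51), 1.68-fold lower (adjusted p = 5.0e-04, lower in 4 of 4 pairs). Between the treatments, IFN-γ-treated OPCs stood 1.67 ± 0.12 lower on the log2 scale than Dexa-treated OPCs, a 3.18-fold difference (adjusted p = 2.83e-06) with no overlap of libraries.

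The calls of Epas1 against Ctr-OPCs depend on the pairing of libraries by number. Without the replicate block the log2 differences were 1.14 (edgeR, adjusted p = 0.846) and -0.75 (adjusted p = 0.223). Without Dexa replicate 2 the difference under dexamethasone was 0.85 (adjusted p = 0.0549). The difference between the treatments passed in all 20 alternatives. Nearly all Epas1 reads belonged to its full-length transcript Epas1-201, at 99.0% to 100% of reads in every library. By TPM, the short Epas1-202 made up 28.8% and 26.2% of the gene in Dexa replicates 1 and 4, from 2.88 and 1.37 reads. It held 0 reads in Dexa replicate 2 and in the Ctr and IFNg libraries. The TPM of Epas1 in Dexa-treated OPCs, unlike its CPM, thus depends in part on a handful of reads.

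Epas1 is also expressed by endothelial cells, and their markers are given here for that reason. Of 8 endothelial markers 6 were tested, and the 8 together summed to 0.756 to 0.882 TPM in Ctr-OPCs, 0.882 to 1.60 in Dexa-treated OPCs and 1.33 to 3.82 in IFN-γ-treated OPCs, with Cldn5 at no more than 3 reads in any complete library. The VEGF receptor Flt1 rose in Dexa-treated OPCs, from 2.14 ± 0.660 (SD, n = 4) to 4.62 ± 1.44 CPM (n = 3, edgeR, adjusted p = 0.0130). In IFN-γ-treated OPCs the VEGF receptor Kdr fell, from 1.96 ± 0.516 to 1.11 ± 0.328 CPM (adjusted p = 0.00717), and Ly6c1 rose from 0.00675 ± 0.0135 to 1.19 ± 0.579 CPM (adjusted p = 4.98e-06, all n = 4). Of 7 pericyte markers 3 were tested, 0 were called in Dexa-treated OPCs (edgeR, 0 at an unadjusted p under 0.05, 0 by DESeq2 with the replicate block) and 1, Vtn, fell in IFN-γ-treated OPCs. Their summed levels were 0.203 to 0.681, 0.204 to 0.589 and 0.214 to 0.473 TPM, with Kcnj8 at no more than 3 reads in any complete library. Without the replicate block 0 endothelial markers were called in Dexa-treated and 1 in IFN-γ-treated OPCs (edgeR). Of the pericyte markers 0 were then called in IFN-γ-treated OPCs. The part of endothelial cells and pericytes in the level of Epas1 was not tested.

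The third α subunit, Hif1a (ENSMUSG00000021109, chromosome 12, 73901375 to 73947530), was the most abundant member and did not pass the test in either treatment. Its level was 177, 192, 252 and 298 CPM in Ctr replicates 1 to 4, 158, 180 and 264 in Dexa replicates 1, 2 and 4, and 173, 197, 197 and 200 in IFNg replicates 1 to 4. Ctr replicates 3 and 4, which share a title prefix, held the highest values of their group, and the 3 groups overlapped. The log2 difference was -0.17 ± 0.11 (95% interval -0.41 to 0.07) for Dexa-treated OPCs (edgeR, adjusted p = 0.636, lower in 3 of 3 pairs). For IFN-γ-treated OPCs it was -0.23 ± 0.10 (-0.44 to -0.01, adjusted p = 0.100, lower in 3 of 4 pairs). With IFNg replicate 2 left out this value was -0.30 and passed (adjusted p = 0.0478), and it also passed at -0.24 with no filter on low counts (adjusted p = 0.0101). Its reads were divided between 2 full-length forms with separate starts, Hif1a-201 at 57.0% to 66.1% and Hif1a-202 at 32.6% to 41.7% over all libraries, and these ranges overlapped between the 3 groups.

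In IFN-γ-treated OPCs, 3 of the 9 members changed: Egln3 rose, and Epas1 and Vhl fell. Over all genes tested, 5702 passed in this comparison (31%), with 2778 (15.1%) higher and 2924 (15.9%) lower, so that 3 of 9 is near the background.

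Egln3 (ENSMUSG00000035105, minus strand of chromosome 12, 54178981 to 54203860) encodes the prolyl hydroxylase PHD3, which is itself known as a HIF target. Its level was 7.40, 9.19, 4.82 and 7.04 CPM in Ctr replicates 1 to 4, 8.52, 10.0 and 8.61 in Dexa replicates 1, 2 and 4, and 23.6, 25.0, 14.5 and 20.1 in IFNg replicates 1 to 4. All IFNg libraries lay above all others, and the Ctr and Dexa libraries overlapped. The log2 difference was 1.55 ± 0.08 (SE, 95% interval 1.39 to 1.72) for IFN-γ-treated OPCs, 2.93-fold higher (edgeR, adjusted p = 1.28e-07, higher in 4 of 4 pairs). For Dexa-treated OPCs it was 0.20 ± 0.09 (0.01 to 0.40, adjusted p = 0.423, higher in 3 of 3 pairs), and IFN-γ-treated OPCs stood 1.35 ± 0.09 above Dexa-treated OPCs (adjusted p = 1.29e-06). The rise under IFN-γ passed in all 21 alternatives, from 1.46 to 1.68. In Dexa replicate 3, whose table lists the gene whole, Egln3 stood at 0.986 TPM, below the 2.17 to 2.42 TPM of the other Dexa libraries and the 1.26 to 2.44 TPM of the Ctr libraries.

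Vhl (ENSMUSG00000033933, chromosome 6, 113623959 to 113631633), the subunit that recognizes hydroxylated α subunits, was slightly lower in IFN-γ-treated OPCs. It stood at 58.4, 69.1, 71.5 and 72.0 CPM in Ctr replicates 1 to 4, at 55.6, 73.4 and 74.4 in Dexa replicates 1, 2 and 4, and at 41.5, 56.5, 57.1 and 60.4 in IFNg replicates 1 to 4. Each IFNg library was below its partner, while the groups overlapped, with the library numbered 1 lowest in each group. The log2 difference was -0.34 ± 0.05 (-0.46 to -0.22), 1.27-fold lower (edgeR, adjusted p = 8.49e-04). It was -0.33 and did not pass without the replicate block (adjusted p = 0.200). On TPM as deposited it was -0.08 (limma, adjusted p = 0.696), and -0.29 with each library centred on its median gene (adjusted p = 0.0498). For Dexa-treated OPCs the value was 0.02 ± 0.06 (adjusted p = 0.928), and IFN-γ-treated OPCs stood 0.36 ± 0.06 below Dexa-treated OPCs (adjusted p = 0.00112). Most reads fell on the coding transcript Vhl-201, at 94.5% to 98.5% of reads. By TPM Vhl-201 made up 71.5% to 90.6% of the gene over the complete libraries. The short Vhl-202 made up 9.37% to 28.5% of the TPM from 1.49% to 5.50% of the reads.

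The β subunits and the other hydroxylases stayed within narrow intervals of no difference. Arnt, the general β subunit, ranged from 31.5 to 39.6 CPM over all 11 libraries, and Arnt2, the form enriched in neural tissue, from 113 to 149. Egln1 (PHD2), the main oxygen sensor of the family, ranged from 74.1 to 111 and Egln2 (PHD1) from 44.3 to 74.0. Their log2 differences lay between -0.03 and 0.11 for Dexa-treated OPCs (adjusted p = 0.581 to 0.991) and between -0.11 and 0.04 for IFN-γ-treated OPCs (adjusted p = 0.181 to 0.788). The widest 95% interval among these 8 values, that of Egln2 in Dexa-treated OPCs, ran from -0.23 to 0.20.

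Arnt was lower in 4 of 4 IFNg libraries than in their Ctr partners, by 0.11 ± 0.06 on the log2 scale (edgeR, adjusted p = 0.181). Egln1 stood at -0.16 ± 0.06 in IFN-γ-treated against Dexa-treated OPCs (adjusted p = 0.0789, lower in 3 of 3 pairs), and passed when Ctr replicate 3 (adjusted p = 0.0424) or IFNg replicate 3 (adjusted p = 0.0438) was left out. Egln2 was 0.04 ± 0.09 higher in IFN-γ-treated OPCs although 3 of 4 pairs were lower, and without Ctr replicate 3 the value was -0.07. Between the treatments, 3 of the 8 tested members passed, Epas1, Egln3 and Vhl, where 6089 of all genes did (33.1%), with 3016 (16.4%) higher under IFN-γ and 3073 (16.7%) lower.

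**Figure D4:**
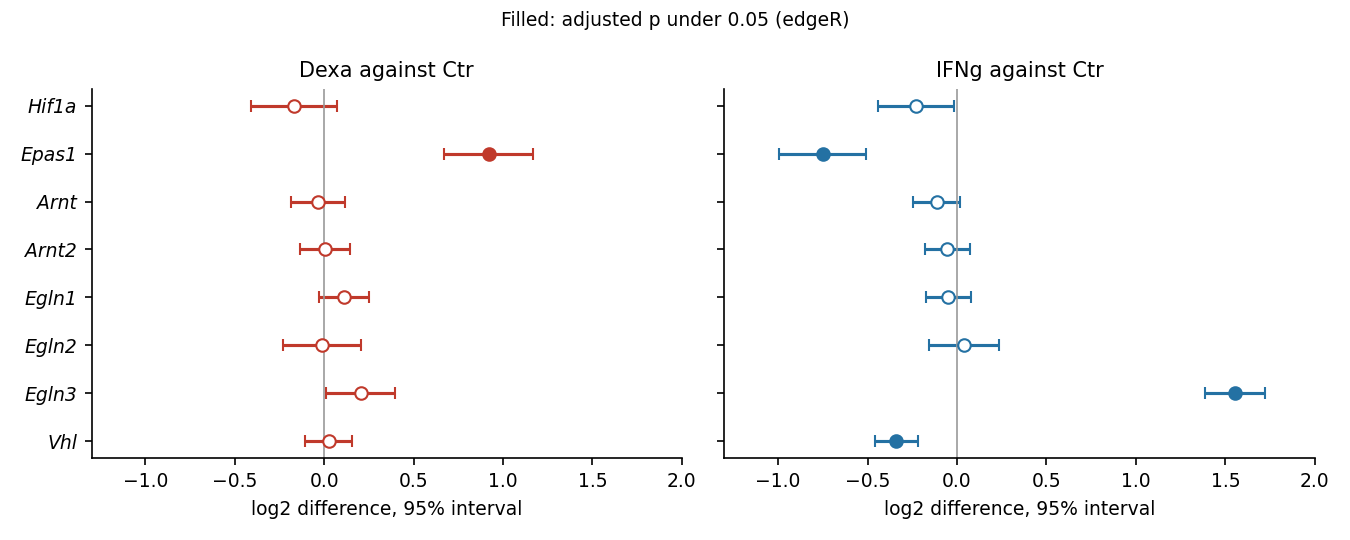
Log2 difference from Ctr-OPCs with its 95% interval for the 8 tested members in Dexa-treated OPCs (left) and IFN-γ-treated OPCs (right), with filled points for an adjusted p under 0.05 (edgeR). Epas1 lies on opposite sides of 0 in the panels, Egln3 lies furthest right under IFN-γ, and both panels share the same Ctr libraries.

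The interval plot shows that most of the family stayed within 0.5 of 0 on the log2 scale in either treatment, with Epas1 and Egln3 as the exceptions. Since both panels use the same Ctr libraries, the direct comparison of the treatments given for each gene is the test of whether they differ.

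The genes with the pattern most like that of Hif3a over the 11 complete libraries were sought by Pearson's r of log2 CPM, as a description. They were Fkbp5 (r = 0.985), Per1 (0.979), Chst2 (0.973), the gene model Gm37805 (0.968) and Kcnn2 (0.957). Because Hif3a separates 3 Dexa libraries from 8 others, r describes that gap more than variation within groups. Fkbp5, a co-chaperone of the glucocorticoid receptor, averaged 43.3 ± 7.17 CPM (SD, n = 4) in Ctr-OPCs, 120 ± 17.7 (n = 3) in Dexa-treated and 43.6 ± 8.99 (n = 4) in IFN-γ-treated OPCs. Chst2, a sulfotransferase, averaged 155 ± 55.6, 772 ± 48.8 and 119 ± 40.7, and Kcnn2, a calcium-activated potassium channel, 1.18 ± 0.437, 4.17 ± 1.53 and 1.16 ± 0.430. Gm37805 averaged 0.666 ± 0.200, 3.54 ± 0.255 and 0.576 ± 0.0671. The clock gene Per1 also belongs to the bHLH-PAS genes described next.

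Of 17 other bHLH-PAS genes, which share the DNA-binding and dimerization fold of the HIFs, 14 were tested. In Dexa-treated OPCs 2 rose and 1 fell, all of the circadian clock: Per1 rose by 1.60 ± 0.07 on the log2 scale, from 10.7 ± 1.23 to 34.7 ± 1.37 CPM (edgeR, adjusted p = 3.48e-06), Arntl rose by 0.40 ± 0.07 (adjusted p = 0.0262) and Per3 fell by 0.97 ± 0.13 (adjusted p = 0.00490). In IFN-γ-treated OPCs 0 rose and 3 fell, Per3 by 0.65 ± 0.11 (adjusted p = 0.00150), Per2 by 0.55 ± 0.10 (adjusted p = 0.00170) and the coactivator Ncoa1 by 0.24 ± 0.06 (adjusted p = 0.00780). Of all genes tested 1.5% passed under dexamethasone and 31% under IFN-γ, so the 3 of 14 called under IFN-γ lay below that share. Without the replicate block 2 of the 14 were called under dexamethasone and 1 under IFN-γ. The list's median log2 difference was 0.02 and -0.09, against -0.01 and -0.03 over all genes tested. Npas4, Sim1 and Sim2 did not reach the filter.

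Of 17 genes that act on the stability or activity of HIF, all tested, 0 passed in Dexa-treated OPCs (edgeR, 1 at an unadjusted p under 0.05, and 0 by DESeq2 with the replicate block), with a median log2 difference of -0.02. In IFN-γ-treated OPCs 4 rose and 5 fell, with a median of -0.04, where 31% of all genes tested passed, and 3 of the 17 were called without the replicate block. Cul2, the cullin that works with Vhl, rose by 0.60 ± 0.06 (edgeR, adjusted p = 4.56e-05), and Cited2, which competes with HIF-1α for its coactivators, rose by 0.57 ± 0.11 (adjusted p = 0.00335). The largest fall was that of Usp20, a deubiquitinase, by 1.13 ± 0.18 (adjusted p = 9.96e-04), from 102 ± 48.1 to 42.0 ± 8.53 CPM (SD, n = 4 each). The transmembrane prolyl hydroxylase P4htm fell by 0.55 ± 0.09 (adjusted p = 0.00106). Named after their values were seen, the coactivators Crebbp and Ep300 were also among the genes that fell, by 0.18 and 0.16.

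HIF target genes of glucose and energy metabolism, 21 in all and all tested, rose in part under IFN-γ. In Dexa-treated OPCs 1 rose and 0 fell, with a median log2 difference of -0.04. This gene was Aldoc, a brain aldolase that also marks astrocytes, which rose by 0.98 ± 0.17 (edgeR, adjusted p = 0.0169). In IFN-γ-treated OPCs 8 rose and 1 fell, with a median of 0.25 against -0.03 over all genes tested, of which 15.1% rose and 15.9% fell. Pfkp, a phosphofructokinase, rose by 1.34 ± 0.14 (adjusted p = 4.92e-05), from 38.7 ± 10.5 to 94.8 ± 7.26 CPM, Aldoc by 0.87 ± 0.15 (adjusted p = 0.00170), Aldoa by 0.41 ± 0.07 (adjusted p = 0.00181) and Pgk1 by 0.40 ± 0.08 (adjusted p = 0.00316). The other 4 that rose, and the 1 that fell, are named after their values were seen: Gapdh, Tpi1, Pkm and Gpi1 rose, and the adenylate kinase Ak4 fell by 0.31 ± 0.10 (adjusted p = 0.0468). Without the replicate block 1 gene of the list passed in IFN-γ-treated OPCs and 0 in Dexa-treated OPCs (edgeR, against 5 at an unadjusted p under 0.05 with the block and 2 by DESeq2 with it).

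HIF target genes of other functions, 32 in all of which 27 were tested, changed in both directions. In Dexa-treated OPCs 2 rose, Adm (adrenomedullin, a vasodilator peptide) by 1.63 ± 0.19 (edgeR, adjusted p = 0.00204) and Hmox1 (heme oxygenase) by 0.55 ± 0.10 (adjusted p = 0.0314), and 0 fell. Adm averaged 5.51 ± 5.79 CPM (SD, n = 3) against 1.47 ± 1.51 in Ctr-OPCs, a spread between libraries as large as the mean. In IFN-γ-treated OPCs 5 rose and 6 fell, where 15.1% of all genes tested rose and 15.9% fell. Ndrg1 rose by 2.39 ± 0.42 from a low level of 0.199 ± 0.156 CPM (adjusted p = 0.00165), the lipid droplet gene Plin2 by 1.62 ± 0.09 (adjusted p = 4.55e-07) and Hmox1 by 0.71 ± 0.09 (adjusted p = 2.49e-04), and the carbonic anhydrase Car12 fell by 1.30 ± 0.28 (adjusted p = 0.00590). The related mitophagy receptors Bnip3 and Bnip3l, named after their values were seen, moved apart. Bnip3 rose by 0.69 ± 0.09 (adjusted p = 2.27e-04), and Bnip3l fell by 0.52 ± 0.06 (adjusted p = 1.26e-04). The list's median log2 difference was 0.03 under dexamethasone and 0.04 under IFN-γ. Without the replicate block 0 of the 27 were called under dexamethasone and 2 under IFN-γ (edgeR). Under dexamethasone 5 stood at an unadjusted p under 0.05 with the block (edgeR), and 2 were called by DESeq2 with it. Car9, Angptl4, Edn1, Lox and Epo did not reach the filter.

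**Figure D5:**
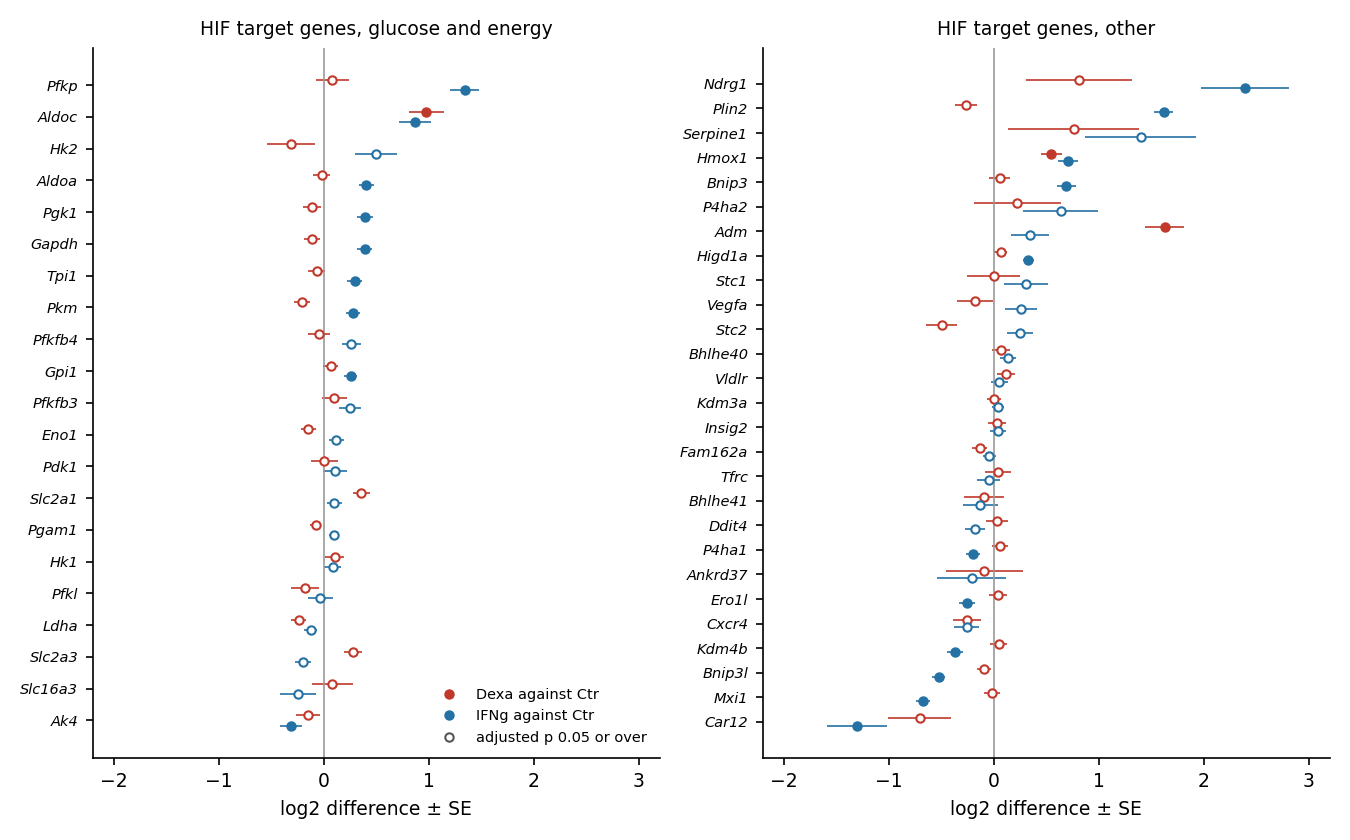
Log2 difference from Ctr-OPCs (± SE) of tested HIF target genes of glucose and energy metabolism (left) and of other functions (right), ordered by their value in IFN-γ-treated OPCs, with red for Dexa-treated and blue for IFN-γ-treated OPCs and filled points for an adjusted p under 0.05 (edgeR). Under dexamethasone 1 gene is filled on the left and 2 on the right, and under IFN-γ 9 and 11.

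The plot of target genes shows 16 of 21 glucose genes above 0 under IFN-γ, of which 8 rose in the test, and 15 of 27 genes of other functions above 0, of which 5 rose. Under dexamethasone 9 of 21 and 16 of 27 lay above 0. The 31% of all genes that passed under IFN-γ is the background for the 9 of 21 and 11 of 27 called there, and 1.5% is the background for the 1 of 21 and 2 of 27 called under dexamethasone.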

How the data were processed

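Total RNA-seq of 12 libraries was used as the authors quantified it. Per the labels and methods, strand-specific libraries with ribosomal RNA removed were sequenced from both ends, and the authors ran Salmon 0.8.2 on a mouse transcriptome (GRCm38), which gave deposited estimated counts and TPM for 141862 transcripts. The authors' 3 DESeq2 tables hold fold changes and p-values of their own comparisons and were not used.

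Estimated counts were summed per gene, rounded, and tested where at least 10 counts were found in at least 3 of 11 libraries (18386 genes), with edgeR 4.0.16 (TMM, quasi-likelihood, replicate number as a block, Benjamini-Hochberg over all genes tested, called at an adjusted p under 0.05). SE is the log2 difference over the root of F. The partial table of Dexa replicate 3 entered TPM values and the fit over genes it lists whole. Deviations from group means correlated at 0.408 to 0.731 in all 10 pairs with the same number and at -0.629 to 0.513 in 30 other pairs, so the numbers were taken to pair the libraries. The highest of the other pairs joined Ctr replicate 3 and Dexa replicate 4, whose numbers share a title prefix. Replicates differed beyond sampling noise (chi-square per degree of freedom 21.2 to 202). The lowest values, 22.6 in Ctr and 21.2 in IFNg, were those between replicates 3 and 4. The test was tried on simulated counts. Alternatives used DESeq2 1.42.0, limma 3.58.1 on log2(TPM + 0.1) (added after seeing the data), other scalings and filters, and each library left out.

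The members and lists were chosen with earlier results of these data known. Named were all members, up to 4 called genes of each list by size of difference, the 5 genes most correlated with Hif3a (log2 CPM, prior count 2) and its transcripts, and other genes where stated. Log2 differences of low genes depend on few reads, PCR copies were not told apart, and Salmon's model divides reads between transcripts of a gene. A further promoter motif is not reported here.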

Additional observations from a re-analysis of the deposited data

Results flagged for a closer look

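In IFN-γ-treated OPCs, 1 library stood apart from the other 3 for 2 genes of the family, by a gap to the nearest library divided by the whole range above Dixon's 95% critical value for 4 samples. For Hif3a the ratio was 0.859, with replicate 1 at 0.329 CPM above the other libraries at 0.0763 to 0.112, a gap that rests on 11 reads against 4, 3 and 2. For Hif1a the ratio was 0.884, with replicate 1 at 173 CPM below the other libraries at 197 to 200. Of 18 groups of 4 examined 2 passed this value, and chance passes about 1 in 20.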

How the results depend on the processing

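Without the replicate block, members called fell from 1 to 0 in Dexa-treated OPCs and from 3 to 1 in IFN-γ-treated OPCs, with edgeR and with DESeq2, and Arnt2 (Dexa against Ctr, -0.0194 and -0.0144), Egln2 (0.0369 and 0.0417) and Egln2 between the treatments (-0.00922 and -0.00396) changed sign. With the title prefix as block 0 members were called under dexamethasone. Without a filter Arnt2 (-0.0205) and Vhl (-0.00137) turned under dexamethasone. On log2 TPM with the replicate block, the sign changed for Arnt2 under dexamethasone (-0.0857, and -0.0708 centred on the median gene), for Hif3a (0.12), Arnt (0.0861), Arnt2 (0.15) and Egln1 (0.13) under IFN-γ, and for Hif1a (0.0811), Arnt (0.13), Arnt2 (0.23) and Egln1 (0.0368) between the treatments. Centred on the median gene, the values under IFN-γ were -0.0967 for Hif3a, -0.133 for Arnt, -0.0723 for Arnt2 and -0.0855 for Egln1. Between the treatments the centred values were -0.153 for Hif1a, -0.102 for Arnt, -0.00147 for Arnt2 and -0.197 for Egln1. All of these centred values had the sign of the main fit. None of the reversed values in this paragraph passed the test, and the cause of the reversals was not tested.

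Leaving out each library in turn gave 0 to 1 members called under dexamethasone, 0 without Dexa replicate 2. The ranges that crossed 0 were, under dexamethasone, -0.0378 to 0.0395 for Arnt2, -0.0692 to 0.0418 for Egln2 and -0.000720 to 0.0748 for Vhl, under IFN-γ, -0.50 to 0.20 for Hif3a and -0.0708 to 0.11 for Egln2, and between the treatments, -0.14 to 0.0704 for Hif1a, -0.11 to 0.00242 for Arnt2 and -0.00466 to 0.13 for Egln2.

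Genes called over all tested, 275 under dexamethasone, 5702 under IFN-γ and 6089 between the treatments, came to 24, 1555 and 1576 without the replicate block and 101, 2328 and 2372 with DESeq2 without it. Under dexamethasone they came to 459 with DESeq2 and the block, 642 with no filter, 78 and 94 on log2 TPM as deposited and centred, and 78 (without Dexa replicate 2) to 399 (without IFNg replicate 1) with 1 library left out. On log2 TPM as deposited 3748 were called under IFN-γ. Without the block the lists of HIF regulators, glucose targets, other targets and bHLH-PAS genes held 3, 1, 2 and 1 called genes under IFN-γ against 9, 9, 11 and 3. Under dexamethasone these lists held 0, 0 to 4, 0 to 3 and 1 to 4 over all alternatives against 0, 1, 2 and 3, and 0 glucose targets without Ctr replicate 2 or 4 or Dexa replicate 1 or 2. Depth limits Hif3a most, at 0 to 17 reads in a Ctr or IFNg library.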

Other observations

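Between the treatments, the HIF target genes of glucose and energy metabolism stood higher in IFN-γ-treated than in Dexa-treated OPCs for 10 of 21 genes and lower for 2, with a median log2 difference of 0.17 against -0.03 over all genes tested (edgeR). Of the other HIF targets 5 stood higher and 6 lower (median 0.01), of the HIF regulators 2 and 5 (median 0.06), and of the other bHLH-PAS genes 1 and 5 (median -0.06). The shares called, 12 of 21, 11 of 27, 7 of 17 and 6 of 14, stand beside 33.1% over all genes tested.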
